A study of Homo sapiens with 10 samples.

Results

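The genes described here encode the CD3 chains of the T-cell receptor and the proteins that act directly next to them: CD3D, CD3E, CD3G, CD247, LCK, ZAP70, LAT, TRAT1 and PTPRC. These 9 genes, of 55889 in the deposited values, were listed by function and found by matching the Ensembl IDs of the files to gene symbols. All 9 passed the filter on low values and were among the 10297 genes tested. The cells were KOPT-K1, an established human leukaemia line of the T lineage (T-ALL), from which ribosome-protected fragments (footprints) and total RNA were each sequenced. Cells were treated with silvestrol at 25 nM for 45 minutes, or with DMSO, the solvent, as the control. Silvestrol is a plant-derived inhibitor of eIF4A, the helicase that unwinds 5′ leaders during translation initiation, and the study concerned G-quadruplexes in such leaders. There were 2 libraries of footprints and 3 of RNA for each treatment. All groups are the same single cell line, and the sample descriptions leave it unsaid whether replicates are separate cultures. The p-values therefore cover the spread among these libraries, possibly technical, and nothing more.

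The T-cell receptor recognises antigen with its variable chains, which have no signalling tails of their own. The CD3 chains are bound to them and carry the tyrosine motifs that the kinase LCK phosphorylates. ZAP70 then docks on these motifs and phosphorylates the adaptor LAT, on which the downstream enzymes assemble. Early T-cell development also depends on CD3 and LCK.

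Under silvestrol, none of the 9 genes passed the test in footprints, in RNA or in translational efficiency, the footprint level relative to RNA. Footprint levels were slightly lower in both silvestrol libraries than in both DMSO libraries for CD3D, CD3E, LCK, ZAP70, LAT and TRAT1, 6 of 9 against 25.2% of all genes tested, and higher for PTPRC, 1 of 9 against 13.1%. TRAT1 had the lowest footprint ratio of silvestrol to DMSO, 0.764. RNA levels differed by at most a few percent. The pattern that stood out did not involve the treatment: CD3G, CD3D and TRAT1 carried far more footprint signal for their RNA than most genes, LAT somewhat more, and the other 5 lay nearer the middle of all genes.

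The estimated depth was 1.66 to 2.38 M reads in the footprint libraries and roughly 127 to 216 M in the RNA libraries. Footprint libraries listed 14491 to 14933 genes above 0, and RNA libraries 26561 to 28377. The 9 genes are well covered, with an estimated 286 to 3057 footprint reads each per library. Replicate footprint values of the 9 genes had a median log2 SD of 0.08 in silvestrol and 0.07 in DMSO, against 0.19 and 0.18 over all genes tested. Of 10 T-lineage markers, 8 were tested, 2 had RNA means under 1 RPKM (TRBC1 and RAG1), and the list's median RNA level was 35.1 RPKM. In that list BCL11B, a transcription factor of the T lineage that was picked out after its values were seen, was the 1 gene that passed. Its efficiency fell, with a log2 change of -1.26 (limma, adjusted p = 0.0415), while its RNA rose by 0.28 (adjusted p = 0.00926). The efficiency call was lost after median scaling (limma adjusted p = 0.0664) and with the replicate numbers as a block (0.0904). It was also lost without the second silvestrol (0.0520) or the third DMSO RNA library (0.0674). Without any 1 of the footprint libraries it was lost as well, at log2 changes of -1.31 to -1.21. The RNA call was lost without the filter on low values (limma adjusted p = 0.206) and without the third silvestrol, the first DMSO or the third DMSO RNA library (0.0603, 0.0631 and 0.0649). RNA means were under 1 RPKM (reads per kilobase of gene, relative to the library's total) for 5 of 5 myeloid, 3 of 3 erythroid and both matched stromal markers. Summed RNA levels were 0.104 to 0.184 RPKM in silvestrol and 0.113 to 0.174 in DMSO libraries for the myeloid list, at most 0.00335 in silvestrol and 0.0212 in DMSO for the erythroid list, and at most 0.0582 in silvestrol and 0.219 in DMSO for the stromal list. Of the B-cell markers 4 of 6 were under 1 RPKM, with MS4A1, PAX5 and CD22 listed at 0. CD79A was at 30.8 RPKM in silvestrol and 32.0 in DMSO, and CD79B at 7.98 and 8.62 RPKM. The sums of the B-cell list were 37.7 to 39.5 and 39.5 to 41.4 RPKM. Of the NK-cell markers 3 of 4 were under 1 RPKM, with KLRD1 listed at 0 and NKG7 at 65.7 RPKM in silvestrol and 70.4 in DMSO, which made up nearly all of list sums of 64.2 to 68.4 and 67.7 to 72.7 RPKM.

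The 5′ leaders of these mRNAs were read from GENCODE release 29, on 1 transcript per gene, because the study's question concerned leader sequence. The sense strand was searched for a loose G-quadruplex pattern, 4 tracts of at least 2 G with 1 to 7 bases between them. It was found in 4 of the 9 leaders, those of CD3E, CD3G, LCK and ZAP70, against 69.2% of the leaders of 8829 genes tested. LCK held 4 such stretches and ZAP70 held 2, and the first in each gene is shown, with the G tracts in capitals.
CD3E: GGccttctaGGaaGGctgtGGG
CD3G: GGctGGctGGctGG
LCK: GGGtGGGacgtGGGcgcGGGG
ZAP70: GGccttccGGGcaGGcctGG
Among the stretches shown, LCK's is the one with at least 3 G in every tract, and it lies at bases 7 to 27 of a leader of 138 bases. Another LCK stretch, not shown, at bases 106 to 130, also has at least 3 G in every tract. The stretches of CD3E, CD3G and ZAP70 lie at bases 58 to 79, 18 to 31 and 58 to 77 of their transcripts. None of the 9 leaders had 4 tandem copies of GGC or of CGG, a motif of 4.72% of all leaders. A match describes letters and is not a measured structure, and no match says only that these letters are not in the leader used.

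Silvestrol and related rocaglates are also known to clamp eIF4A onto runs of purines, so the longest purine run of each leader was listed. TRAT1 had the longest run of the 9, shown with CD247, PTPRC and CD3D for comparison (run in capitals, 3 bases on each side).
TRAT1: aacAGAAGAGAAAAGAAtcc
CD247: tctGAGGGAAAGGAcaa
PTPRC: aacAGAGGAGGAAAttg
CD3D: gctAGGGGAGGGcag
The run in TRAT1 is 14 bases long, and 10.9% of all leaders had a run at least that long. CD247 and PTPRC both had runs of 11 bases, reached by 25.7% of leaders. CD3D had 9, LCK 8 and CD3E 7 bases, and CD3G, ZAP70 and LAT had 6, against a median of 8 over all leaders. None of the footprint changes of these genes passed the test, and whether run length bears on them was not tested.

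Leader length and composition varied widely among the 9 genes. Leaders ran from 73 bases in CD247 to 291 in CD3E, with 78 in LAT, 80 in CD3G, 137 in CD3D, 138 in LCK, 174 in PTPRC, 215 in ZAP70 and 230 in TRAT1. The median over all leaders was 198 bases. GC content was 33.0% in TRAT1 and 43.7% in PTPRC, 51.9% to 68.1% in the other 7, and 66.0% at the median of all leaders. TRAT1 was thus among the most AU-rich leaders, at the 0.249 percentile. Upstream ATG codons were present in 5 of 9 leaders, against 53.0% of all. A strong start context, a purine 3 bases before the ATG and a G directly after it, was present in CD3D, CD3G and LCK, 3 of 9, against 48.0% of all.

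CD3D (ENSG00000167286.5), CD3E (ENSG00000198851.5) and CD3G (ENSG00000160654.5) encode the delta, epsilon and gamma chains and are neighbours on chromosome 11, in the order CD3E, CD3D, CD3G. Epsilon pairs with both delta and gamma. CD247 (ENSG00000198821.6, chromosome 1) encodes the zeta chain, which forms a dimer with the most tyrosine motifs and joins the complex late in its assembly.

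CD3D had by far the highest RPKM of the 9 in either assay. RPKM divides by gene length, and CD3D exons cover 929 bases in GENCODE release 29, against 2528 to 9168 in the others. Estimated footprint reads per library were 2256 to 3057 for CD3D, followed by 1348 to 1920 for LAT and 1174 to 1811 for CD3G. How much of the lead of CD3D comes from length was not tested. CD3D footprint levels were 1260 and 1360 RPKM in the silvestrol libraries, against 1450 and 1460 RPKM in the DMSO libraries. Its RNA levels were 689, 671 and 658 RPKM in silvestrol, against 688, 672 and 665 RPKM in DMSO. The footprint groups did not overlap, with silvestrol lower, whereas the RNA values were interleaved. The footprint change was -0.15 on the log2 scale (SE 0.12, 95% interval -0.45 to 0.14, limma adjusted p = 0.810). It was -0.25 after quantile normalization and -0.097 without the first silvestrol footprint library. In bulk RNA, fewer cells carrying a transcript and less of it per cell cannot be told apart. RPKM is relative to each library's total, so a loss of translation shared by all genes would not be seen.

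CD3E had 172 and 191 RPKM in silvestrol footprints, against 223 and 209 RPKM in DMSO footprints. In RNA it had 246, 246 and 237 RPKM in silvestrol, against 256, 251 and 242 RPKM in DMSO. Both silvestrol footprint values were below both DMSO values, and the RNA ranges overlapped. Its footprint change was -0.25 (SE 0.12, 95% interval -0.55 to 0.05, limma adjusted p = 0.738), and it did not pass the test.

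CD3G had 179 and 197 RPKM in silvestrol footprints, against 208 and 184 RPKM in DMSO footprints. Its RNA levels were 55.3, 57.0 and 51.0 RPKM in silvestrol, against 57.3, 55.9 and 56.7 RPKM in DMSO. The groups overlapped in both assays. The footprint change was -0.06 (SE 0.13, limma adjusted p = 0.938). The efficiency change was -0.00079, so close to 0 that scaling each library to its median turned it to 0.06 and quantile normalization to 0.04.

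CD247 had the lowest RPKM of the CD3 chains. It had 41.6 and 42.5 RPKM in silvestrol footprints, against 39.7 and 44.5 RPKM in DMSO footprints, and the groups overlapped with means of 42.05 and 42.1 RPKM. In RNA it had 47.2, 49.0 and 47.5 RPKM in silvestrol, against 49.5, 49.5 and 49.2 RPKM in DMSO. The 3 silvestrol RNA values were all below the DMSO values, by a small margin, and the RNA change of -0.04 did not pass the test (limma adjusted p between 0.568 and 0.988 for the 9 genes in RNA).

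LCK (ENSG00000182866.12, chromosome 1) is the Src-family kinase that starts receptor signalling, and ZAP70 (ENSG00000115085.9, chromosome 2) is the kinase recruited to phosphorylated CD3. LCK had 140 and 146 RPKM in silvestrol footprints, against 163 and 148 RPKM in DMSO footprints. Its RNA levels were 207, 206 and 205 RPKM in silvestrol, against 210, 213 and 209 RPKM in DMSO. Silvestrol was below DMSO without overlap in both assays, but the nearest footprint values, 146 and 148 RPKM, were almost equal. The changes were -0.12 in footprints (SE 0.12, limma adjusted p = 0.844) and -0.03 in RNA. The footprint change was -0.19 without the second DMSO footprint library and -0.050 without the first.

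ZAP70 had 44.7 and 58.3 RPKM in silvestrol footprints, against 61.4 and 67.7 RPKM in DMSO footprints. In RNA it had 97.3, 85.8 and 89.5 RPKM in silvestrol, against 88.7, 94.5 and 87.4 RPKM in DMSO. The silvestrol footprint libraries lay below those of DMSO but on the log2 scale differed more from each other than for any other of the 9 genes. The footprint change was -0.33 (SE 0.17, 95% interval -0.74 to 0.07, limma adjusted p = 0.738). It was -0.14 without the first silvestrol footprint library and -0.52 without the second, so its size rests on which of them is used.

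LAT (ENSG00000213658.5, chromosome 16) is the membrane adaptor that ZAP70 phosphorylates, and TRAT1 (ENSG00000163519.9, chromosome 3) encodes TRIM, a small adaptor that associates with the receptor and zeta chain. LAT had 148 and 166 RPKM in silvestrol footprints, against 191 and 183 RPKM in DMSO footprints. Its RNA levels were 183, 171 and 176 RPKM in silvestrol, against 185, 191 and 180 RPKM in DMSO. The footprint groups did not overlap and the RNA groups did. Its footprint change was -0.25 (SE 0.12, 95% interval -0.55 to 0.05, limma adjusted p = 0.738) and its RNA change -0.07 (adjusted p = 0.568). LAT is uncertain as a single gene: 47.7% of its exon bases are shared with AC109460.3, a transcript on the same strand with 7.21 RPKM of RNA, and 10.2% with AC109460.4 on the other strand, listed at 0.

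TRAT1 had 56.1 and 55.6 RPKM in silvestrol footprints, against 70.7 and 75.9 RPKM in DMSO footprints. In RNA it had 36.0, 39.5 and 36.8 RPKM in silvestrol, against 37.1, 36.1 and 37.7 RPKM in DMSO. The footprint replicates of each treatment lay close together and the groups did not overlap, while the RNA values were interleaved. Means were 55.85 ± 0.354 RPKM in silvestrol and 73.3 ± 3.68 RPKM in DMSO footprints (SD, n = 2 each). The footprint change of -0.39 (SE 0.12, 95% interval -0.69 to -0.09) had an unadjusted limma p of 0.0187 and an adjusted p of 0.658. The efficiency change of -0.41 (SE 0.24, 95% interval -0.93 to 0.12) had an adjusted p of 0.761. A fit that gave footprints and RNA 1 common spread returned an adjusted p of 0.0264 for the same change, and called 545 genes instead of 11, which is 3.99% of all genes lower and 1.3% higher in silvestrol.

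PTPRC (ENSG00000081237.13, chromosome 1) encodes CD45, the phosphatase that removes the inhibitory phosphate of LCK. It had 37.4 and 35.8 RPKM in silvestrol footprints, against 32.2 and 31.9 RPKM in DMSO footprints. Its RNA levels were 38.8, 42.7 and 40.8 RPKM in silvestrol, against 41.9, 40.9 and 43.9 RPKM in DMSO. It was the 1 gene of the 9 with both silvestrol footprint values above both DMSO values, and its RNA groups overlapped. The changes were 0.19 in footprints (SE 0.13, 95% interval -0.13 to 0.51, limma adjusted p = 0.796) and 0.24 in efficiency (SE 0.26, adjusted p = 0.913).

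**Figure D1:**
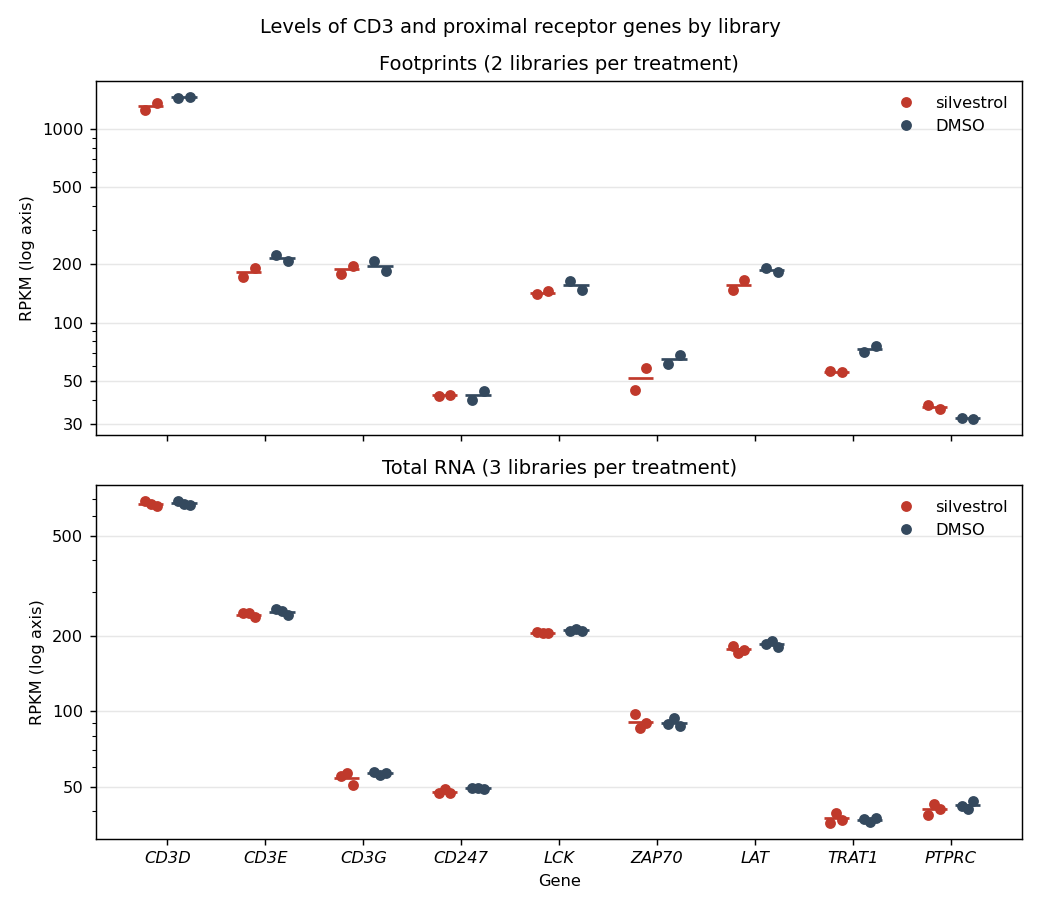
Footprint (top) and total RNA (bottom) levels of the 9 genes in RPKM on log axes, 1 point per library, silvestrol left of DMSO, with short lines at the means. Footprint points of CD3D, CD3E, LCK, ZAP70, LAT and TRAT1 are lower in silvestrol without overlap, PTPRC is higher, and RNA points lie almost level.

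Counted over the 9 genes, 6 had silvestrol footprints below DMSO without overlap, against 25.2% of all genes tested. Among the 1393 genes with a mean footprint level at or above the lowest of the 9, 34.3 RPKM, the share was 29.9%. PTPRC was the 1 gene above, against 13.1% and 14.1%. In RNA, CD247 and LCK were below without overlap, against 3.99% of all genes, and none was above, against 8.97%. The 9 values come from the same 4 footprint and 6 RNA libraries and are not independent of each other.

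Footprint changes were below 0 in 7 of the 9 genes, with a median of -0.15, against a median of -0.07 and 59.5% below 0 over all genes tested. None of the 9 was called at an adjusted p under 0.05 (limma with Benjamini-Hochberg adjustment), and 0.0486% of all genes were, 0.0291% lower and 0.0194% higher in silvestrol. At an unadjusted p under 0.05 there was 1 of the 9, TRAT1, and 719 of all genes. The 95% intervals of the 9 genes ran from 0.598-fold to 1.42-fold, and changes beyond these bounds lie outside every interval.

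Efficiency changes were below 0 in 7 of the 9 genes, with CD3G at 0 to 2 decimals and turning positive under both rescalings, and with a median of -0.15 against -0.08 and 59.9% below 0 over all genes. None of the 9 was called and none reached an unadjusted p under 0.05, while 0.107% of all genes were called, 0.0874% lower and 0.0194% higher in silvestrol, and 760 had an unadjusted p under 0.05. The other efficiency changes were -0.15 for CD3D (adjusted p = 0.921), -0.21 for CD3E (0.866), 0.04 for CD247 (0.981), -0.09 for LCK (0.944), -0.34 for ZAP70 (0.881) and -0.18 for LAT (0.921), from limma. With 1 library left out they ranged from -0.20 to -0.092 for CD3D, -0.29 to -0.14 for CD3E, -0.16 to -0.018 for LCK, -0.53 to -0.15 for ZAP70 and -0.27 to -0.10 for LAT. The value nearest 0 came without the first DMSO footprint library for LCK and without the first silvestrol footprint library for the other 4. CD3D was -0.083 after median scaling and -0.25 after quantile normalization. Intervals reached from 0.482-fold to 1.74-fold.

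RNA changes were within -0.07 and 0.02 for all 9 genes, with a median of -0.04 against 0.00 over all genes, and 7 were below 0 against 47.5% of all genes. ZAP70, at 0.01, was -0.0037 after median scaling. None was called or had an unadjusted p under 0.05, while 0.282% of all genes were called by limma, 0.00971% lower and 0.272% higher in silvestrol, and 950 had an unadjusted p under 0.05. Intervals in RNA ran only from 0.905-fold to 1.08-fold.

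**Figure D2:**
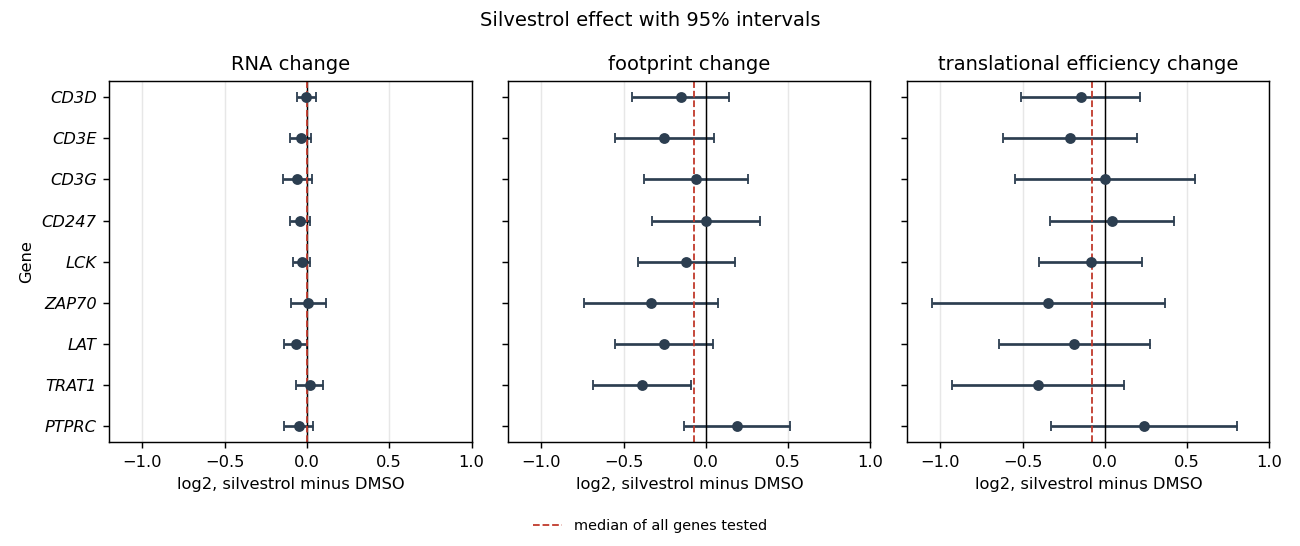
Log2 change, silvestrol minus DMSO, of each gene in RNA, footprints and translational efficiency, with 95% limma intervals, and dashed lines at the median of all genes tested. RNA intervals are narrow and near 0, and the widest intervals are those of efficiency, with TRAT1 lowest at -0.41 and PTPRC highest at 0.24.

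The order of the levels in RPKM was almost the same under both treatments. RPKM divides by gene length, whereas footprints lie in the coding region. The footprint order between genes therefore depends on the lengths used, and an order per coding base was not computed. In RNA it was CD3D, CD3E, LCK, LAT, ZAP70, CD3G, CD247, PTPRC and TRAT1 in silvestrol and in DMSO. Neighbouring ranges did not overlap, except for PTPRC and TRAT1 in silvestrol. By mean RNA in DMSO, CD3D ranked 41 and TRAT1 1649 of the 10297 genes. Footprints gave another order, with CD3G near CD3E and LAT although its RNA level was far below theirs. In silvestrol the footprint order was CD3D, CD3G, CD3E, LAT, LCK, TRAT1, ZAP70, CD247 and PTPRC. In DMSO, CD3E stood before CD3G and the rest kept their places. Ranges overlapped between CD3G and CD3E and between TRAT1 and ZAP70 in silvestrol, and between CD3G and LAT in DMSO.

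The footprint level relative to RNA spread the 9 genes apart. The ratio, on the log2(RPKM + 0.5) scale turned back into a fold, was 3.43 in silvestrol and 3.43 in DMSO for CD3G. CD3D had 1.95 in silvestrol and 2.15 in DMSO, and TRAT1 had 1.49 and 1.97. In DMSO these 3 genes stood at the 98.0, 96.0 and 95.5 percentiles of all genes tested. LAT had 0.888 in silvestrol and 1.01 in DMSO, at the 72.5 percentile in DMSO. CD3E, CD247, PTPRC, LCK and ZAP70 had 0.747, 0.879, 0.899, 0.695 and 0.565 in silvestrol and 0.865, 0.852, 0.762, 0.738 and 0.717 in DMSO, between the 47.1 and 62.1 percentiles in DMSO. The epsilon chain therefore stood far below the gamma chain, its partner in the complex, in footprints per RNA. Levels are per gene length, and footprints lie in the coding region, which makes up 20.3% of the transcript in CD3G, 29.1% in TRAT1, 30.6% in CD247, 40.1% in CD3E, 53.9% in LAT, 59.6% in CD3D and 72.1% to 76.2% in LCK, PTPRC and ZAP70. The part of coding length in these ratios was not tested.

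**Figure D3:**
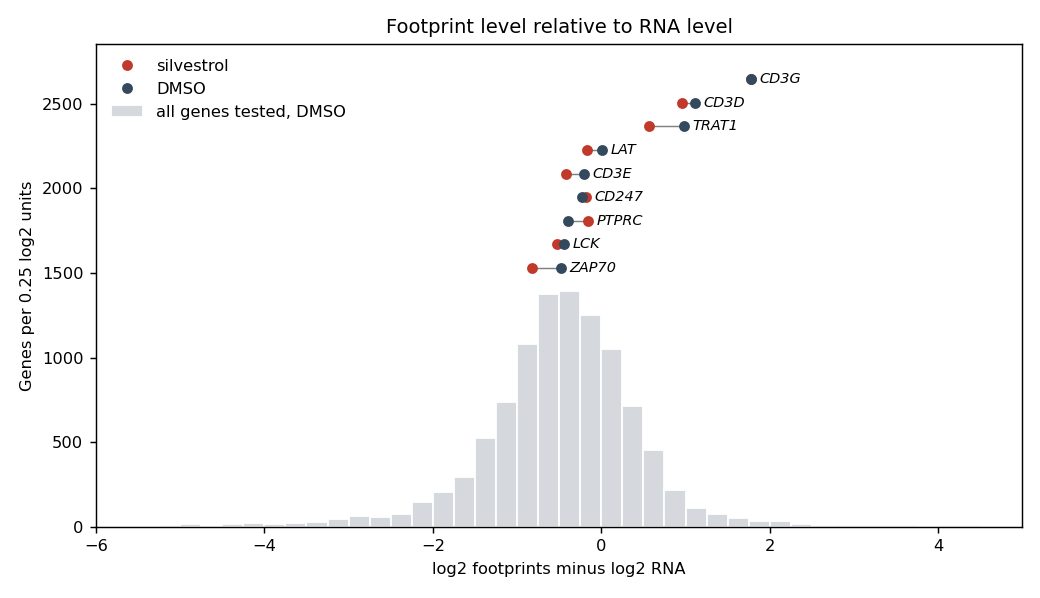
Log2 footprint minus log2 RNA level of each gene in silvestrol and DMSO (points, joined by lines; their height carries no value) above a histogram of the same quantity in DMSO over all genes tested, with 8 genes below and 49 above the plotted range. CD3G (its points coincide), CD3D and TRAT1 lie in the right tail, and the other genes lie to their left.

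Within the CD3 complex, each chain's share of the summed RPKM of the 4 chains was compared per library. These are shares of RPKM, not of reads or of translation, and they depend on the gene lengths used. In GENCODE release 29 the exons cover 929 bases in CD3D, 2844 in CD3E, 3836 in CD3G and 4034 in CD247. The coding regions, where footprints lie, are 513, 621, 546 and 492 bases long in the same order. In footprints CD3D made up 76.1% ± 0.203 in silvestrol and 76.2% ± 1.03 in DMSO (SD, n = 2 each). CD3E made up 10.5% ± 0.184 and 11.3% ± 0.421, CD3G 10.9% ± 0.121 and 10.3% ± 0.801, and CD247 2.45% ± 0.102 and 2.21% ± 0.197, each in silvestrol and in DMSO. The differences were under 1 percentage point, and exact two-sided permutation tests gave p = 1 for CD3D and 0.333 for the other chains, the smallest p that 2 against 2 libraries allow. The summed level was 1652.6 and 1790.5 RPKM in silvestrol footprints, against 1920.7 and 1897.5 RPKM in DMSO footprints. The groups did not overlap, as was already so for CD3D, which made up most of the sum. In RNA the shares were 66.1% ± 0.430 and 65.5% ± 0.155 for CD3D, 23.9% ± 0.169 and 24.2% ± 0.285 for CD3E, 5.35% ± 0.220 and 5.50% ± 0.0890 for CD3G, and 4.71% ± 0.136 and 4.79% ± 0.0752 for CD247 (silvestrol and DMSO, SD, n = 3 each). The exact permutation p was 0.2, 0.2, 0.4 and 0.5, where 0.1 is the smallest possible, and adjusted over the 8 tests all values lay between 0.533 and 1.

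The shares differed more between assays than between treatments, a comparison chosen after the values were seen. Over the 4 footprint libraries against the 6 RNA libraries, CD3E made up 10.9% ± 0.520 against 24.0% ± 0.284, CD3G 10.6% ± 0.601 against 5.42% ± 0.171, CD247 2.33% ± 0.188 against 4.75% ± 0.109 and CD3D 76.2% ± 0.607 against 65.8% ± 0.432 (SD). The ranges of the assays did not overlap for any chain. This is given as a description without a p-value, and the 4 shares of a library sum to 100%, so they are not independent of each other. Coding regions make up 59.6% of the transcript in CD3D, 40.1% in CD3E, 30.6% in CD247 and 20.3% in CD3G. The part of coding length in these shares was not tested.

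**Figure D4:**
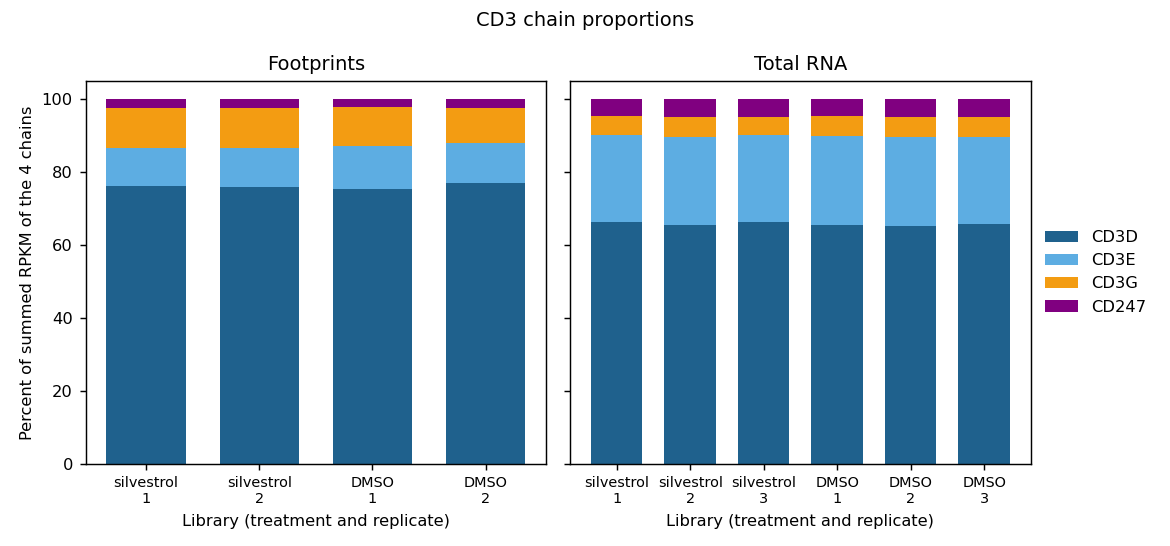
Share of each CD3 chain in the summed RPKM of the 4 chains, in percent, by library, footprints left and total RNA right, silvestrol before DMSO. Bars of one assay look alike, with CD3E near 10.9% in footprints and 24.0% in RNA.

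The wider receptor pathway was described through 6 lists with 86 genes, of which 75 were tested. None of the 75 was called lower or higher in any of the 3 comparisons, where 0.107%, 0.0486% and 0.282% of all genes were called in efficiency, footprints and RNA. At an unadjusted limma p under 0.05 there were 3 of the 75 in efficiency, 1 in footprints and 8 in RNA, against 760, 719 and 950 of all 10297 genes. Over the 75 genes the median change was -0.11 in efficiency, -0.13 in footprints and -0.00 in RNA, against -0.08, -0.07 and 0.00 over all genes tested. Footprint medians by list were -0.16 for 4 receptor chains, -0.20 for 9 co-receptors and co-stimulatory receptors, -0.11 for 12 kinases and phosphatases, -0.15 for 17 adaptors and ubiquitin ligases, -0.09 for 23 second messenger and effector genes and -0.08 for 10 genes of CD3 assembly and transport. Efficiency medians in the same order were -0.10, -0.25, -0.11, -0.16, -0.07 and -0.03.

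Named by the highest RNA level in each list, TRBC2, the receptor beta constant chain, averaged 2080 ± 141 RPKM in silvestrol and 2375 ± 91.9 RPKM in DMSO footprints (SD, n = 2 each), a change of -0.19. TRBC1, its near-identical copy, was listed at 0 in all footprint libraries, so the split between the 2 copies is uncertain. TRDC, the delta constant chain, averaged 200.5 RPKM in silvestrol and 219 RPKM in DMSO footprints. CD2, an adhesion receptor, had 94.5 and 96.8 RPKM, a change of -0.03 that turned to 0.02 under both rescalings. CD5, an inhibitory co-receptor, had 33.9 and 42.8 RPKM, a change of -0.34 that was -0.17 without the first silvestrol library. None of these passed the test.

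CSK, the kinase that puts the inhibitory phosphate on LCK, averaged 26.5 ± 1.48 RPKM in silvestrol and 32.2 ± 0.636 RPKM in DMSO footprints (SD, n = 2 each), a change of -0.28. SLA2, an adaptor that dampens receptor signalling, had 18.1 and 22.0 RPKM and the same change to 2 decimals. PTPN7, a phosphatase of MAP kinases, had 29.5 and 30.6 RPKM, a change of -0.04 that turned positive, to at most 0.01, under both rescalings. SH2D1A, the adaptor SAP, had 86.1 and 80.1 RPKM (0.10). VAV1, a guanine nucleotide exchange factor, had 51.3 and 50.4 RPKM (0.03), and PLCG1, the phospholipase bound by LAT, had 32.8 and 34.9 RPKM (-0.10). The chaperones of CD3 assembly, CALR and CANX, had 631 and 111 RPKM in silvestrol against 654.5 and 107.5 RPKM in DMSO footprints (-0.05 and 0.05). These 8 genes did not pass the test either, and the changes are log2 values, silvestrol minus DMSO. SYK, the kinase related to ZAP70, was listed at 0 in every library.

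**Figure D5:**
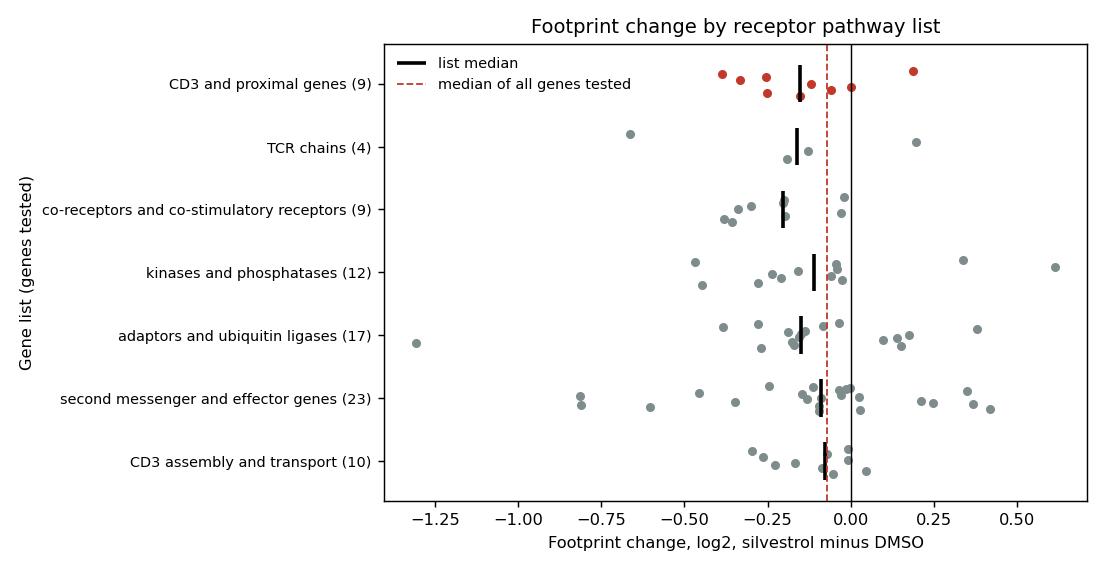
Footprint change, log2 silvestrol minus DMSO, of the 9 genes and of each receptor pathway list, 1 point per gene tested (vertical offsets carry no value), with black bars at list medians and a dashed line at the median of all genes tested. List medians lie between -0.20 and -0.08, and the genes of every list scatter to both sides of their median.

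Across the 10 libraries, the genes whose centred levels lay nearest the average of CD3D, CD3E and CD3G were SLC16A1, a lactate transporter, AP2S1, a clathrin adaptor subunit, and AIF1. Likeness was the Euclidean distance between log2(RPKM + 0.5) values centred on each gene's mean, over 10297 genes, and came to 0.155, 0.167 and 0.204. CD3D itself stood at 0.324, in place 54, and TRAT1 at 0.330, in place 61, while CD3E and CD3G, which lie on opposite sides of the average, were far from it at 1.78 and 1.47. SLC16A1 averaged 60.05 ± 1.06 RPKM in silvestrol and 63.45 ± 3.18 RPKM in DMSO footprints (SD, n = 2 each), against RNA levels of 35.2 and 35.9 RPKM. Like CD3D, SLC16A1 had more RPKM in footprints than in RNA under both treatments. The distance takes in the difference between assays, so this likeness follows from how the gene was picked.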

How the data were processed

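Each library was deposited as a table of RPKM for 55889 Ensembl IDs, as the authors computed it per the file headers. The submitters' processing notes name STAR and hg19. Not given in the sources used here are the counter, its annotation, the gene lengths, and how strand and multi-mapping reads were handled, so near-identical copies and overlapping genes are uncertain. A name was found for 49662 IDs.

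Genes with a mean of at least 1 RPKM in RNA and in footprints were tested as log2(RPKM + 0.5), which understates changes of low genes, with limma 3.58.1 in R 4.3.3 (lmFit, eBayes with trend and robust, two-sided, Benjamini-Hochberg over 10297 genes, called at an adjusted p under 0.05). Footprints used 4 libraries and RNA 6. Efficiency was the interaction of assay and treatment over 10 libraries with 1 weight per assay, 0.119 for footprints and 4.12 for RNA, since footprints spread more. The scripts were tested on simulated data.

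Depth was estimated from the step between low values, with GENCODE release 29 exon lengths. In each library 90.7% to 93.1% of such values were whole reads within 0.05. Lengths are not the authors', so no count model was used. GENCODE release 29, on another build than hg19, gave leaders and lengths by gene ID, and no coordinates are given. Groups and replicate numbers came from the sample titles.

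The members and lists were chosen with earlier results of these data known. Named genes were the 9 members, for each pathway list up to 4 called genes per comparison or, with no call, the 2 with the highest RNA, and the 3 nearest in pattern. TRAC, ORAI1 and PECAM1 were not used here. Alternatives were 2 other pseudocounts, 2 other filters, 2 other scalings, each library left out, the replicate block, 1 common spread, and contrasts from the fit of 10 libraries.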

Additional observations from a re-analysis of the deposited data

How the results depend on the processing

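Of the 9 CD3 and proximal genes, none was called in any comparison under any alternative run, except TRAT1, the 1 gene of the 9 called in efficiency when footprints and RNA shared 1 spread. Counts over all genes moved more, and the cause was not tested except where fewer libraries or other gene sets enter by construction. For efficiency, 11 genes were called, with 271 without the filter, 545 with 1 spread, 14 with the replicate block and 8 to 44 with 1 library left out. For footprints, 5 genes were called, with 2 at a pseudocount of 0.1, 280 without the filter, 2 at a mean of at least 5 RPKM, 8 after quantile normalization, 9 from the fit of 10 libraries, 1 with the replicate block and 0 with any 1 library left out, where limma gave 510 to 772 genes an unadjusted p under 0.05. For RNA, 29 genes were called, with 0 without the filter (limma, 1885 genes at an unadjusted p under 0.05), 48 from the fit of 10 libraries, 57 with the replicate block and 0 to 35 with 1 library left out, the count of 0 coming without the first or the third DMSO RNA library (743 and 846 genes at an unadjusted p under 0.05). Deviations of same-numbered silvestrol and DMSO libraries had correlations of -0.03 in footprints and 0.04, -0.33 and 0.15 in RNA. Differently numbered libraries gave 0.03 in footprints and -0.32 to 0.30 in RNA. With 2 or 3 libraries per group, these values cannot decide whether the numbers pair the samples. The replicate block changed no call of the 9 genes. In RNA, 1 gene was lower and 28 higher, against 2 and 19 after median scaling and 3 and 45 in the fit of 10 libraries. In footprints, 3 were lower and 2 higher, against 3 and 5 after quantile normalization, 7 and 2 in the fit of 10 libraries, and 0 and 2 both at a pseudocount of 0.1 and at a mean of at least 5 RPKM.

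Values near 0 changed sign. Median scaling and quantile normalization gave 0.063 and 0.040 for CD3G efficiency, 0.021 and 0.023 for CD2 footprints and 0.012 and 0.0051 for PTPN7 footprints, and median scaling gave -0.0037 for ZAP70 RNA. With 1 library left out, efficiency ranged from -0.089 to 0.087 for CD3G and from -0.037 to 0.13 for CD247. Footprint changes ranged from -0.15 to 0.029 for CD3G, -0.081 to 0.082 for CD247, -0.15 to 0.093 for CD2, -0.23 to 0.15 for PTPN7, -0.060 to 0.26 for SH2D1A, -0.048 to 0.10 for VAV1, -0.26 to 0.069 for PLCG1 and -0.014 to 0.11 for CANX. RNA changes ranged from -0.023 to 0.011 for CD3D, -0.041 to 0.050 for ZAP70 and -0.022 to 0.044 for TRAT1. The difference in the CD3D footprint share ranged from -0.843 to 0.607 percentage points, and the other 7 differences in CD3 shares kept their sign. A group left with 1 library was assumed to vary like the others. Footprints rest on 2 libraries per treatment, which limits every footprint and efficiency value to the intervals given.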
